A study of Mus musculus with 16 samples.

Results

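The expression of 9 genes for sensing formyl peptides, complement fragments and platelet-activating factor was examined in myeloid-derived suppressor cells (MDSCs) of tumor-bearing mice. They were the receptors Fpr1, Fpr2, C5ar1, C3ar1 and Ptafr, the complement components C3, Cfp and Cfb, and the complement regulator Cd55. They were chosen by name, with earlier results of these data known, and all 9 were found among the 24421 gene symbols of the count tables. The libraries were 3′ mRNA tags of monocytic (M-) MDSCs, sorted as CD11b-high Ly6C+ Ly6G- cells, and granulocytic (G-) MDSCs, sorted as CD11b-high Ly6C- Ly6G+ cells. Both were taken from the spleens of mice labelled C57BL/6 that carried subcutaneous B16.F10 tumors, a transplanted melanoma line with an intact Nlrp3 gene. The mice were wild type (WT) or Nlrp3-/-, a whole-body disruption in which an EGFP cassette was inserted in frame at the start codon of Nlrp3, so every host cell and not the MDSCs alone lacked the gene. By the study's methods the WT mice were C57BL/6J mice bought from a supplier and the Nlrp3-/- line, on a C57BL/6 background, came from another laboratory, so source and genotype cannot be told apart. The study also reports smaller B16.F10 tumors in Nlrp3-/- mice, with more M- and fewer G-MDSCs in tumor and spleen. Effects of tumor size and of genotype therefore cannot be told apart either. There were 4 mice per genotype, each giving both subsets, and 4 libraries in each of the 4 groups. The study states a default age range, with mice matched for age and sex, and a default day of analysis, each to hold where nothing else is indicated. It indicates nothing else for the sequenced mice and does not give their ages or day singly.

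Formyl peptide receptors recognize peptides that start with formylated methionine, which are released by bacteria and by mitochondria of dying cells, and they steer neutrophils and monocytes toward such sites. Complement cleavage yields the anaphylatoxins C3a and C5a, read by C3ar1 and C5ar1, while Ptafr binds the lipid platelet-activating factor. These receptors signal through Gi proteins, and Ptafr also through Gq. C3 is the central component on which the complement pathways converge, factor B (Cfb) forms the alternative pathway convertase with it, properdin (Cfp) holds that convertase together, and Cd55 on host cells takes it apart.

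The libraries held between 2295967 and 6079866 counts. Levels are given as CPM (counts per 1000000 counts of a library), scaled over all 16 libraries by the trimmed mean of M values (TMM), with factors of 0.722 to 0.804 in G-MDSCs and 1.2 to 1.46 in M-MDSCs. A count of 0 allows up to 3 counts, which stood for 0.349 to 1.17 CPM, a limit that covers counting error only. Nlrp3 itself, whose 3′ tags lie downstream of the inserted cassette, was at 40.7 to 88.9 CPM in WT and 0.514 to 1.88 CPM in Nlrp3-/- M-MDSCs, and at 252 to 331 CPM in WT and 5.51 to 13.6 CPM in Nlrp3-/- G-MDSCs so every Nlrp3-/- library lay below every WT library of its subset. The 10 neutrophil markers found in the tables (Ly6g was not among the symbols) summed to 115343 to 175732 CPM in G-MDSCs. In M-MDSCs they summed to 1456 to 2554 CPM in 7 libraries and to 8758 CPM in WT replicate 2, which therefore stood apart. The 10 monocyte markers summed to 6442 to 9513 CPM in M-MDSCs and 800 to 1389 CPM in G-MDSCs. Fewer cells expressing a gene and less RNA of it per cell cannot be told apart in such bulk samples.

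The 5 receptor genes lie on 4 chromosomes of the mouse genome (mm10). Fpr1 (chr17:17876471-17883940, minus strand) and Fpr2 (chr17:17887824-17893952, plus strand) are divergent neighbours whose start sites face each other, C5ar1 is at chr7:16246743-16259540 (minus), C3ar1 at chr6:122847138-122856161 (minus) and Ptafr at chr4:132564067-132582683 (plus). C3 lies at chr17:57203970-57228136 (minus), Cfb at chr17:34856374-34862518 (minus), Cfp at chrX:20925454-20931555 (minus) and Cd55 at chr1:130439027-130462744 (minus). The promoters of Fpr1, Fpr2, C5ar1 and C3 are printed to set the 3 receptors with the largest difference between the subsets beside a component with the opposite difference. Each runs from 250 bases before to 50 bases after the RefSeq start site (GRCm38.p6, the same coordinates as mm10) in the direction of the gene. The sequences cover chr17:17883890-17884189 for Fpr1, chr17:17887574-17887873 for Fpr2, chr7:16259289-16259588 for C5ar1 and chr17:57228087-57228386 for C3. Capitals mark matches to the 5 short motifs named after them.
Fpr1: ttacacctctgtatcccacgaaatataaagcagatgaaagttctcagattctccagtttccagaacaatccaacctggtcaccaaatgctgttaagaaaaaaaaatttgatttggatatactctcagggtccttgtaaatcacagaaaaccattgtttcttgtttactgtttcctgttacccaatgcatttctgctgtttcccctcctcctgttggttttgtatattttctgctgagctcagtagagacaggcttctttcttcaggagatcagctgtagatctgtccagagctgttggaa
Fpr2: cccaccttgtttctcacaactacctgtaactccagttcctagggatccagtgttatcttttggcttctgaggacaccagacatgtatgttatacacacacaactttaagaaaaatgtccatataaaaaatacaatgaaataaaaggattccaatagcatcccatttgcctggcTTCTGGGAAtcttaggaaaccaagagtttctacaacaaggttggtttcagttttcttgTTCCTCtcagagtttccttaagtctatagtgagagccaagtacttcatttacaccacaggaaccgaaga
C5ar1: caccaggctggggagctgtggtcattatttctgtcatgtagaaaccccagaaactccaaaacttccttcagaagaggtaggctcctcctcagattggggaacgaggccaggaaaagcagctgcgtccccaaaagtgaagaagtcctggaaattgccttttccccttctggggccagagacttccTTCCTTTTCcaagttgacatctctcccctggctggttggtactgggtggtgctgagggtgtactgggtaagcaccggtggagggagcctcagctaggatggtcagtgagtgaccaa
C3: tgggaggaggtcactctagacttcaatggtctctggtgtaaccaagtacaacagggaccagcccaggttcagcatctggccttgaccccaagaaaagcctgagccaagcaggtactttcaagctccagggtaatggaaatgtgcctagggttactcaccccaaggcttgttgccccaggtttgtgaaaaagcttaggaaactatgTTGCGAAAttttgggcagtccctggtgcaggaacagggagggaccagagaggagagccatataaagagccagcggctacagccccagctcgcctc

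Both strands were searched for GAGGAA, the core bound by PU.1, TTNCGNAA for C/EBP, TTCNNNGAA for STAT, GAAANNGAA for IRF and GGGNNTTTC for NF-kB factors. The Fpr2 promoter held a STAT match at bases -77 to -69 from the start site and a PU.1 match at -19 to -14. C5ar1 held an IRF match at -66 to -58, C3 a C/EBP match at -45 to -38, and Fpr1 none of the 5. Of the promoters not printed, Ptafr held a PU.1 match at -242 to -237, C3ar1 an NF-kB match at -13 to -5, Cfp had PU.1 matches at 7 to 12 and 23 to 28, and Cd55 had none. Promoter sequence was at hand for 8 of the 9 genes (not Cfb), and 6 of the 8 held a match. Among all 32851 promoters of this length, 28.3% held the PU.1 letters, 2.47% the C/EBP, 8.30% the STAT, 8.56% the IRF and 4.36% the NF-kB letters, and 43.2% held at least one of the 5. Such matches describe letters and not binding.

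Fpr1, Fpr2, C5ar1 and Ptafr were higher in G-MDSCs than in M-MDSCs of both genotypes, by 81.0, 13.5, 38.1 and 4.89-fold in WT mice and by 61.4, 10.5, 57.3 and 9.13-fold in Nlrp3-/- mice. C3ar1 went the other way. A gene was called different when edgeR's quasi-likelihood test, fitted over all genes that passed the filter on low counts, gave a Benjamini-Hochberg FDR under 0.05 and the fold change exceeded 1.5. In WT mice 8 of the 9 members passed the filter and 8 were called, 6 higher and 2 lower in G-MDSCs, against 26.3% of 9739 genes called higher and 27.1% called lower. In Nlrp3-/- mice all 9 passed and 8 were called, 5 higher and 3 lower, against 23.7% of 10071 genes higher and 27.4% lower. Without WT M-MDSC replicate 2, the library with the high neutrophil sum, 9 members were called in WT mice.

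Fpr1, the high-affinity receptor for bacterial formyl peptides, was at 194, 128, 218 and 217 CPM in WT G-MDSCs (replicates 1 to 4) and at 229, 203, 181 and 258 CPM in Nlrp3-/- G-MDSCs. In M-MDSCs it was at 0.929, 2.39, 3.03 and 3.08 CPM in WT and at 6.75, 0.171, 0.627 and 4.11 CPM in Nlrp3-/- mice, the last group holding 58, 1, 3 and 32 counts. Every G-MDSC library lay far above every M-MDSC library, and 2 of the 4 Nlrp3-/- M-MDSC libraries were at or under 3 counts. The log2 fold change of G- over M-MDSCs was 6.34 ± 0.32 (SE, n = 4 mice per group) in WT mice, FDR 3.00e-08, and 5.94 ± 0.54 in Nlrp3-/- mice, FDR 5.73e-07.

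Fpr2, a receptor of broader ligand range that also binds annexin A1 and serum amyloid A, stood at 451, 614, 771 and 645 CPM in WT G-MDSCs. In Nlrp3-/- G-MDSCs it was at 823, 628, 563 and 827 CPM. In M-MDSCs it was detected in every library, at 29.7, 69.6, 55.7 and 27.8 CPM in WT and 87.6, 37.2, 54.1 and 69.6 CPM in Nlrp3-/- mice. No M-MDSC library reached the lowest G-MDSC library. The log2 fold change was 3.75 ± 0.31 in WT mice (FDR 1.24e-06) and 3.39 ± 0.26 in Nlrp3-/- mice (FDR 1.15e-07). The longest run of bases shared by the transcripts of Fpr1 and Fpr2 was 50 bases, and it was 14 bases within their last 500 bases, where 3′ tags fall. Of the related mouse receptors, Fpr3, Fpr-rs3, Fpr-rs4 and Fpr-rs6 had 0 counts in all 16 libraries.

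C5ar1, the receptor through which C5a attracts and activates myeloid cells, was at 239, 398, 509 and 402 CPM in WT G-MDSCs and at 568, 573, 445 and 642 CPM in Nlrp3-/- G-MDSCs. In M-MDSCs it was at 7.99, 15.5, 7.31 and 9.25 CPM in WT and 13.6, 9.55, 3.13 and 8.48 CPM in Nlrp3-/- mice. The subsets did not overlap, and the log2 fold change was 5.25 ± 0.31 in WT (FDR 8.92e-08) and 5.84 ± 0.34 in Nlrp3-/- mice (FDR 6.49e-09). Its neighbour C5ar2, the second C5a receptor, which does not couple to G proteins, was added after its values were seen. It had log2 fold changes of 5.09 ± 0.36 (FDR 3.49e-07) and 5.42 ± 0.25 (FDR 7.00e-10) for the same comparisons, and the longest run that the C5ar1 and C5ar2 transcripts share was 19 bases.

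Ptafr was at 145, 79.9, 88.0 and 95.7 CPM in WT G-MDSCs and at 121, 160, 155 and 255 CPM in Nlrp3-/- G-MDSCs. In M-MDSCs it was at 31.2, 20.7, 14.8 and 16.4 CPM in WT and 12.9, 22.5, 14.2 and 19.9 CPM in Nlrp3-/- mice. The groups of the 2 subsets did not overlap. The log2 fold change was 2.29 ± 0.27 in WT mice (FDR 1.94e-05) and 3.19 ± 0.26 in Nlrp3-/- mice (FDR 1.44e-07). The difference between the 2 values, tested as the interaction of subset and genotype in a model of all 16 libraries, was 1.02 ± 0.38 with an unadjusted p of 0.0141 and an FDR of 0.992, so it was not established among 10696 genes.

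C3ar1, the C3a receptor, had few counts. In M-MDSCs it was at 4.46, 1.83, 3.03 and 9.59 CPM in WT and 5.70, 11.6, 6.47 and 6.04 CPM in Nlrp3-/- mice. In G-MDSCs it was at 1.67, 0.338, 1.94 and 1.17 CPM in WT (5, 1, 8 and 3 counts) and 3.00, 0.494, 4.35 and 2.1 CPM in Nlrp3-/- mice (13, 2, 21 and 8 counts). The subsets overlapped in WT mice and did not overlap in Nlrp3-/- mice, where the log2 fold change was -1.66 ± 0.54 (FDR 0.0188) and was no longer called without M-MDSC replicate 2 (-1.40, FDR 0.0751). In WT mice C3ar1 did not pass the filter, and the summed counts of 82 in M- and 17 in G-MDSCs gave a ratio of 2.90 (95% interval 1.71 to 5.22, counting error only). Tested without the filter, its log2 fold change there was -1.81 (FDR 0.0215). It passed the filter in some WT fits that left out a library. Of these it was called without M-MDSC replicate 2 and G-MDSC replicates 1 and 3. It was not called without G-MDSC replicate 2 (-1.43, FDR 0.0721) or replicate 4 (-1.70, FDR 0.0642).

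**Figure D1:**
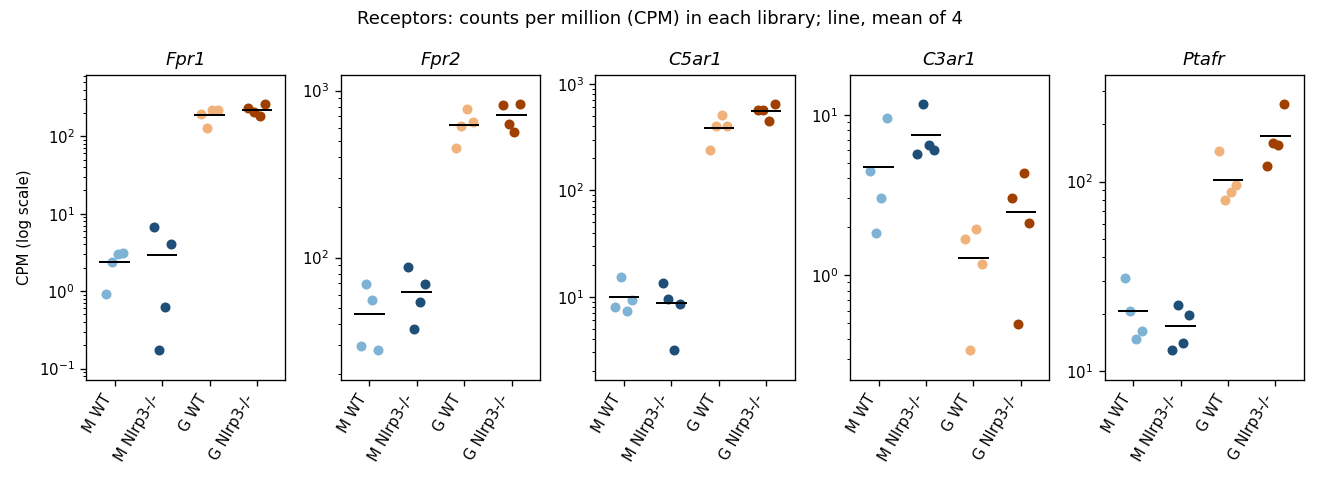
CPM of the 5 receptors on a log scale in each of the 16 libraries, by subset (M, G) and genotype, with 1 point per mouse in replicate order and a line at the mean of 4. Fpr1, Fpr2, C5ar1 and Ptafr sit higher in all G-MDSC libraries than in any M-MDSC library, and C3ar1 is lower, with WT groups that overlap.

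The M-MDSC level of each receptor was also set beside those of neutrophil genes, as a share of the G-MDSC mean. In WT and Nlrp3-/- mice M-MDSCs held 20.4% and 10.1% of the G-MDSC level of Ptafr, 7.36% and 8.75% of that of Fpr2, 2.59% and 1.56% for C5ar1 and 1.25% and 1.34% for Fpr1. For Cxcr2, the chemokine receptor of mature neutrophils, the shares were 0.0609% and 0.0734%, for Mmp9 0.115% and 0.341%, and for the granule and cytosolic genes S100a8 2.33% and 1.27%, and Mmp8 14.5% and 15.6%. In the WT M-MDSC library with the highest neutrophil sum (replicate 2, S100a8 at 3723 CPM against 566 to 1209 CPM in the others) Fpr2 was at 69.6 CPM, equal to Nlrp3-/- replicate 4 and below replicate 1 (87.6 CPM), whose S100a8 levels were 926 and 787 CPM. C5ar1 there was at 15.5 CPM, the highest of the 8 M-MDSC libraries (the others 3.13 to 13.6 CPM), and Fpr2 was the highest of its WT group, while Fpr1 was at 2.39 CPM, in the middle of its group. Cxcr2 was at 3.52 CPM in that library and at 0.209 to 1.37 CPM in the other M-MDSC libraries. Some other neutrophil genes lay there within the range of the other M-MDSC libraries: Mmp9 at 2.25 CPM (2.14 to 32.1), Retnlg at 25.7 (9.45 to 315), Csf3r at 31.2 (16.2 to 41) and Mmp8 at 216 (109 to 219). The neutrophil sum of that library, 8758 CPM, held 3723 CPM of S100a8 and 2616 CPM of S100a9. Most of the rest came from Camp, Ltf and Ngp, whose values are not given singly. The 6 immature neutrophil markers, which include these genes, summed to 1213 to 3637 CPM in WT M-MDSCs. In Nlrp3-/- M-MDSCs they summed to 1222 to 2798 CPM. The part of neutrophil RNA in the M-MDSC levels was not tested.

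**Figure D2:**
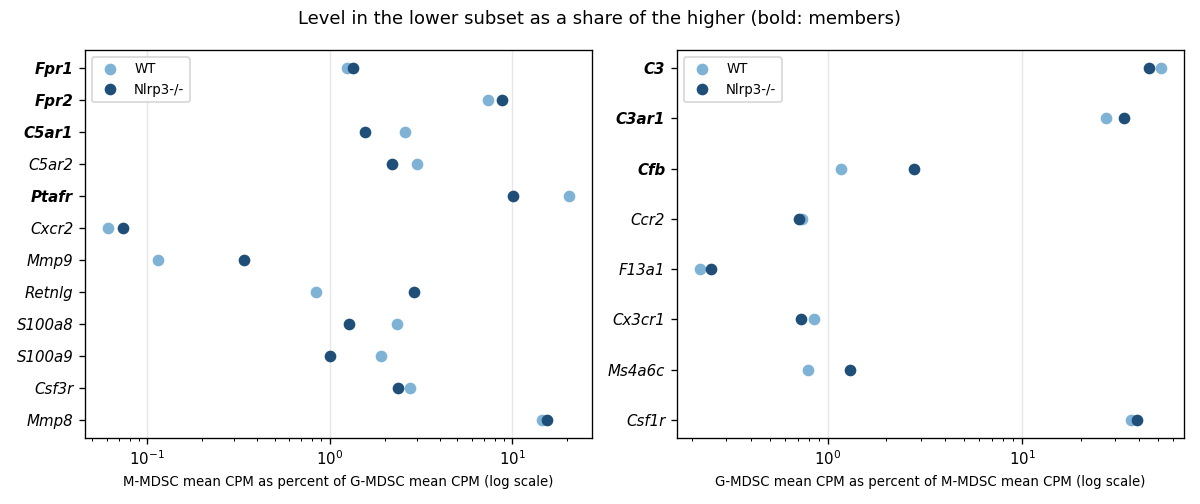
Mean CPM in the lower subset as a percent of the mean in the higher one, on a log scale, for members (bold) and marker genes, in WT (light) and Nlrp3-/- mice (dark). Ptafr and Fpr2 keep 7.36% to 20.4% of the G-MDSC level in M-MDSCs while Cxcr2 keeps under 0.1%, and C3 and C3ar1 keep 27% to 51.7% of the M-MDSC level in G-MDSCs.

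Of the complement components, C3 and Cfb were lower and Cfp was higher in G-MDSCs than in M-MDSCs of both genotypes. C3 was at 611, 312, 435 and 463 CPM in WT M-MDSCs and at 277, 214, 188 and 263 CPM in WT G-MDSCs. In Nlrp3-/- mice it was at 503, 357, 766 and 554 CPM in M-MDSCs and 281, 190, 251 and 259 CPM in G-MDSCs. The subsets did not overlap in either genotype, and G-MDSCs kept 51.7% of the M-MDSC mean in WT and 45.0% in Nlrp3-/- mice. The log2 fold change was -0.95 ± 0.21 (FDR 0.00236) and -1.27 ± 0.22 (FDR 0.000206).

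Cfb separated the subsets far more. It was at 25.8, 17.4, 18.6 and 24 CPM in WT M-MDSCs and 20.1, 30.5, 27.6 and 31.3 CPM in Nlrp3-/- M-MDSCs. In G-MDSCs it had 2, 1, 0 and 0 counts in WT and 2, 3, 0 and 7 counts in Nlrp3-/- mice, so 7 of these 8 libraries were at or under 3 counts. From the summed counts, M-MDSCs exceeded G-MDSCs 87.7-fold in WT (95% interval 29.8 to 427) and 38.2-fold in Nlrp3-/- mice (21.7 to 74.3), intervals that cover counting error only. The call was made in both genotypes, with FDR 1.26e-06 and 1.21e-06. The G-MDSC share of 1.17% and 2.77%, resting on 3 and 12 counts, stood beside 0.733% and 0.707% for the monocyte gene Ccr2, 0.219% and 0.251% for F13a1 and 36.3% and 39.2% for Csf1r. The counting interval in WT mice is too wide to order Cfb and Ccr2. C2, the classical pathway relative of Cfb directly next to it, was at 0 to 21 counts in every library and showed no comparable level in M-MDSCs (1, 7, 2 and 1 counts in WT).

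Cfp was at 115, 66.9, 76.0 and 89.8 CPM in WT M-MDSCs and 194, 116, 169 and 241 CPM in WT G-MDSCs. In Nlrp3-/- mice it was at 130, 109, 120 and 119 CPM in M-MDSCs and 287, 289, 255 and 320 CPM in G-MDSCs. The lowest G-MDSC value in WT (116 CPM) lay just above the highest M-MDSC value (115 CPM), whereas the Nlrp3-/- groups were far apart. The log2 fold change was 1.05 ± 0.23 in WT (FDR 0.00227) and 1.15 ± 0.15 in Nlrp3-/- mice (FDR 1.76e-05). These values depended on the scaling. With library sizes alone, which moved the median of all genes from -0.05 to -0.79 in WT and from -0.12 to -0.83 in Nlrp3-/- mice, Cfp was at 0.31 (FDR 0.272) and 0.43 (FDR 0.0176) and was not called.

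Cd55, which protects cells from their own complement, was at 15.7, 21.3, 12.6 and 19.8 CPM in WT G-MDSCs and 5.39, 7.45, 5.89 and 5.14 CPM in WT M-MDSCs. In Nlrp3-/- mice it was at 7.39, 2.47, 9.53 and 11 CPM in G-MDSCs and 3.49, 5.97, 2.51 and 1.54 CPM in M-MDSCs. The WT subsets did not overlap (log2 fold change 1.52 ± 0.27, FDR 0.000459). The Nlrp3-/- subsets overlapped through G-MDSC replicate 2, with 1.06 ± 0.54 and FDR 0.11, and without that library the value was 1.38 (FDR 0.0335). The 2 log2 fold changes differed by -0.35 ± 0.59 (FDR 0.992). Cd55 had 10 to 63 counts per library, and its transcripts share a run of 232 bases within their last 500 bases with those of its copy Cd55b, which had 0 to 9 counts, so reads could have been lost or split between them.

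**Figure D3:**
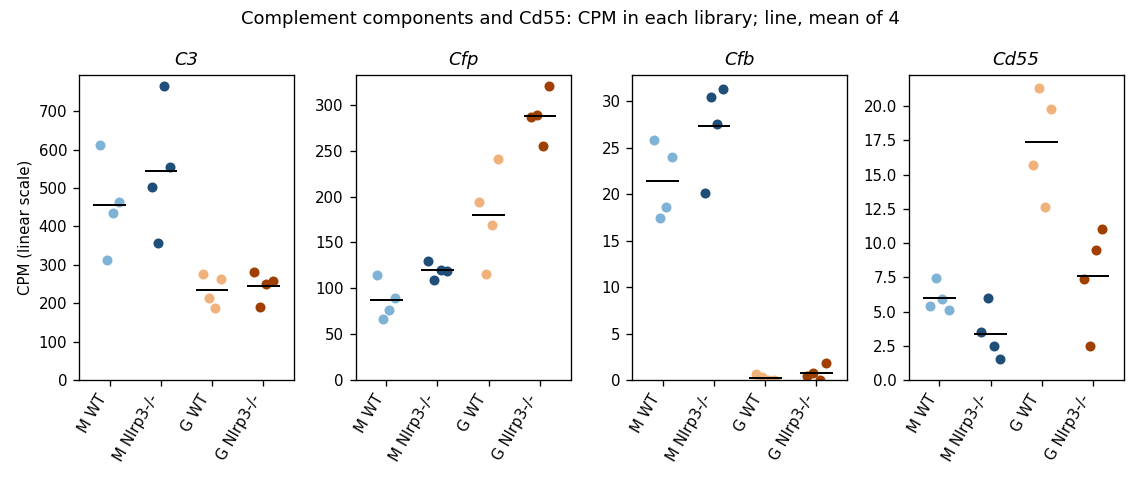
CPM of C3, Cfp, Cfb and Cd55 on linear scales in each library, by subset and genotype, with 1 point per mouse in replicate order and a line at the mean of 4. C3 and Cfb are higher in M-MDSCs, Cfp is higher in G-MDSCs, and Cd55 in G-MDSCs lies at 12.6 to 21.3 CPM in WT and at 2.47 to 11 CPM in Nlrp3-/- mice.

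In M-MDSCs none of the 9 members was called between Nlrp3-/- and WT mice, where 10.6% of 9986 genes were called. By unadjusted p, 1 member was under 0.05, and none had groups that did not overlap, against 19.3% of all genes. DESeq2 also called 0 of them, as did the fit without WT replicate 2. Their log2 fold changes ran from -0.81 to 0.75 with a median of 0.38, beside 0.07 for all genes tested. The 95% intervals of all 5 receptors took in a 1.5-fold change.

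Fpr1 in M-MDSCs changed by 0.44 ± 0.79 on the log2 scale (95% interval -1.27 to 2.15) and its sign turned to -0.44 without Nlrp3-/- replicate 1. Fpr2 was at 0.47 ± 0.33 (-0.25 to 1.19), C5ar1 at -0.16 ± 0.40 (-1.04 to 0.73), Ptafr at -0.24 ± 0.27 (-0.83 to 0.35) and C3ar1 at 0.75 ± 0.46 (-0.26 to 1.76). Among the components C3 was at 0.28 ± 0.25 (-0.25 to 0.82), Cfb at 0.38 ± 0.21 (-0.07 to 0.83) and Cfp at 0.49 ± 0.18 (0.09 to 0.89, FDR 0.0995). Cfp was the member closest to the threshold, with every Nlrp3-/- library at 109 CPM or more and WT replicate 1 the single WT library above that, at 115 CPM. Without it the log2 fold change was 0.68 (FDR 0.0384). Cd55 was at -0.81 ± 0.41 (-1.69 to 0.08, FDR 0.203).

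In G-MDSCs 7 of the 9 members passed the filter, and Cfp was called higher and Cd55 lower in Nlrp3-/- mice. That is 1 of 7 in each direction, beside 4.70% of 9273 genes called higher and 11.7% called lower. The median log2 fold change of the 7 was 0.12, beside 0.03 for all genes tested. The groups of 2 members did not overlap, as for 24.4% of all genes.

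Folds come from the fit of the 8 G-MDSC libraries, whose scaling differs from that of the CPM over all 16. Cfp rose 1.51-fold in Nlrp3-/- G-MDSCs, from 180 ± 52.0 to 288 ± 26.4 CPM (mean ± SD, n = 4), and the lowest Nlrp3-/- library (255 CPM) lay above the highest WT library (241 CPM). The log2 fold change was 0.59 ± 0.19 (FDR 0.0493). Cd55 fell 2.43-fold, from 17.4 ± 3.97 to 7.60 ± 3.73 CPM, and the highest Nlrp3-/- library (11 CPM) lay below the lowest WT library (12.6 CPM). Its log2 fold change was -1.28 ± 0.39 (FDR 0.0361).

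Both calls were close to the threshold. With offsets for GC content and transcript length the log2 fold change of Cfp was 0.24 (FDR 0.439) and that of Cd55 -0.99 (FDR 0.115). With library sizes alone Cd55 was at -1.15 (FDR 0.0541) and was not called. Cfp was called without WT replicate 4 (0.77) and was not called without any 1 of the other 7 libraries, with log2 fold changes of 0.44 to 0.65 and FDRs of 0.061 to 0.121. Cd55 was not called without WT replicate 2 (-1.15, FDR 0.0953), WT replicate 4 (-1.20, FDR 0.0862), Nlrp3-/- replicate 1 (-1.26, FDR 0.0679) or Nlrp3-/- replicate 2 (-0.99, FDR 0.0627).

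Among the receptors Ptafr was at 0.67 ± 0.23 (95% interval 0.17 to 1.17) with FDR 0.0600, and WT replicate 1 (145 CPM) lay above Nlrp3-/- replicate 1 (121 CPM). It was called without either of these libraries (0.87, FDR 0.0190, and 0.82, FDR 0.0302) and by DESeq2 (0.70, FDR 0.0340). Those 2 were the only calls among the 8 fits that left out a library, where it ranged from 0.44 to 0.87. Among 11 other settings it was called in 6, and the highest FDR of all these runs was 0.207. C5ar1 was at 0.44 ± 0.21 (-0.01 to 0.89, FDR 0.168), with 3 of the 4 Nlrp3-/- libraries above all WT libraries. Fpr1 was at 0.12 ± 0.18 (-0.28 to 0.51) and Fpr2 at 0.10 ± 0.19 (-0.30 to 0.51), intervals that end below a 1.5-fold rise. C3 was at -0.03 ± 0.17 (-0.39 to 0.34). C3ar1 and Cfb had too few counts for the fit, and an exact two-sided permutation test of their CPM over the 8 libraries gave p = 0.229 and 0.286, where 0.0286 is the smallest p that 4 against 4 allows.

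**Figure D4:**
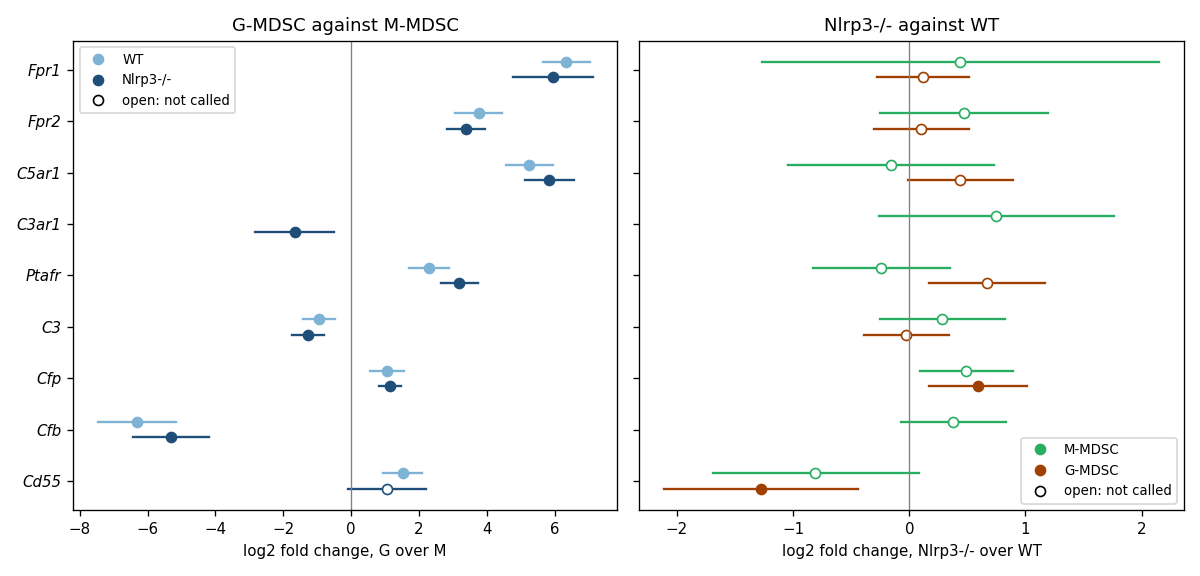
Log2 fold changes with 95% intervals of the 9 members, G-MDSC over M-MDSC in both genotypes (left) and Nlrp3-/- over WT in both subsets (right), with filled points for called differences and no point where a gene did not pass the filter. The subset differences reach from -6.32 (Cfb) to 6.34 (Fpr1), while the genotype differences lie between -1.28 and 0.75.

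**Figure D5:**
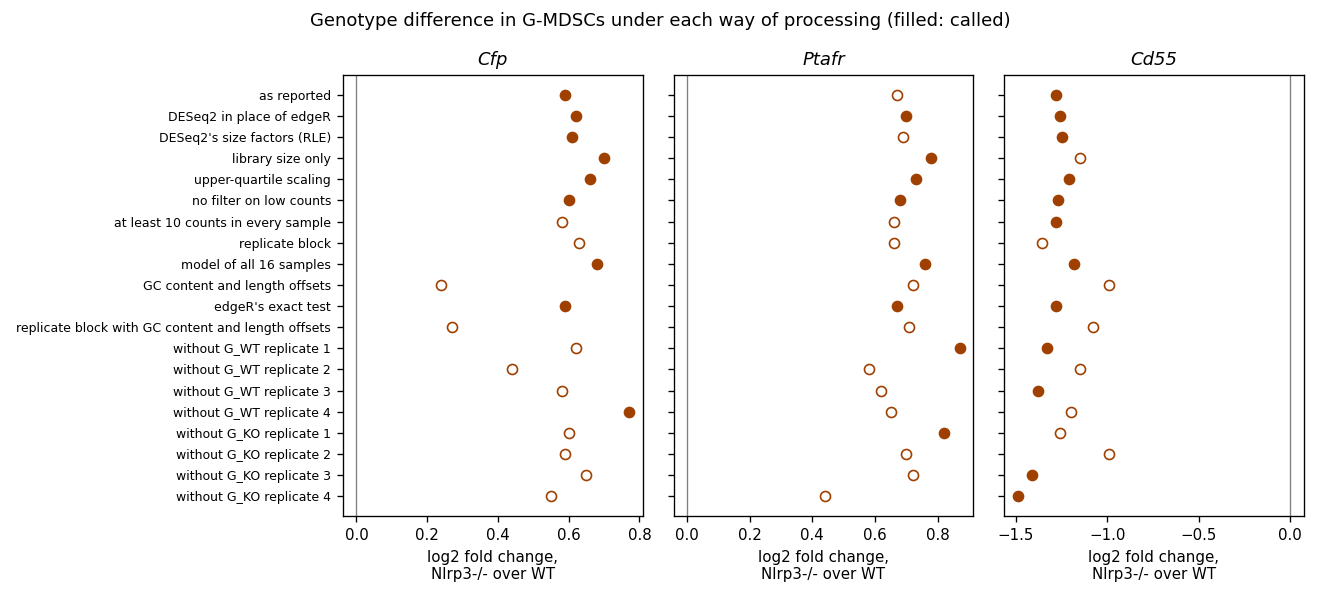
Log2 fold change of Cfp, Ptafr and Cd55 in G-MDSCs, Nlrp3-/- over WT, as reported and under 19 other ways of processing or leaving out 1 library, with filled points where the gene was called. All values keep their sign, from 0.24 to 0.77 for Cfp, 0.44 to 0.87 for Ptafr and -1.49 to -0.99 for Cd55, while the calls come and go.

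The interaction test called no member as responding unequally to genotype in the 2 subsets (0 of 9, beside 0.0280% of 10696 genes, with 1 member under an unadjusted p of 0.05 and 0 called by DESeq2). Other cell type and maturation markers moved with genotype. The summed level of 8 red pulp macrophage markers, 3 of which are C1q genes, was 75.7 to 93.8 CPM in WT and 193 to 325 CPM in Nlrp3-/- M-MDSCs, and 400 to 739 CPM in WT and 940 to 1177 CPM in Nlrp3-/- G-MDSCs, with 7 of the 8 called higher in each subset and none at 0. The 6 mature neutrophil markers summed to 18254 to 29898 CPM in WT and 33146 to 43744 CPM in Nlrp3-/- G-MDSCs, with 1 called higher and 1 lower. Of these Cxcr2 fell in Nlrp3-/- G-MDSCs (-1.26 ± 0.22, FDR 0.00152), while in M-MDSCs Mmp9 (2.22 ± 0.49, FDR 0.0169) and Retnlg (2.44 ± 0.53, FDR 0.0151) rose. The sums of the 6 markers overlapped in M-MDSCs, at 474 to 708 CPM in WT and 560 to 780 CPM in Nlrp3-/- mice. Csf3r of the same list was at -0.06 ± 0.32 there and was not called. Nor were the neutrophil markers S100a8 (-0.56 ± 0.51), S100a9 (-0.78 ± 0.52) and Mmp8 (-0.01 ± 0.23) in M-MDSCs. The 5 NK cell markers, of which Klra8 was at 0 in every library, summed to 28.7 to 63.5 CPM in WT and 87.7 to 130 CPM in Nlrp3-/- M-MDSCs and to 21 to 42.4 CPM and 52.3 to 86.8 CPM in G-MDSCs, with 1 called higher in each subset. The 10 monocyte markers summed to 800 to 1125 CPM in WT and 1146 to 1389 CPM in Nlrp3-/- G-MDSCs, with 1 called higher. In M-MDSCs they summed to 6442 to 9084 CPM in WT and 7390 to 9513 CPM in Nlrp3-/- mice, with 0 called higher and 2 lower. The part of these marker differences in those of Cfp, Ptafr and Cd55 was not tested.

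Beyond the 9 members, 92 genes of the same pathways were listed. In M-MDSCs 60 of them were tested, 6 were called higher and 1 lower in Nlrp3-/- mice, with a median log2 fold change of 0.13, beside 3.51% of all genes called higher, 7.10% lower and a median of 0.07. In G-MDSCs 57 were tested, 8 were called higher and 4 lower, with a median of 0.25, beside 4.70% of all genes higher, 11.7% lower and a median of 0.03. The lists had been written with earlier results of these data known.

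Among the complement components the C1q chains, which start the classical pathway, and Fcna, a ficolin that starts the lectin pathway, rose in Nlrp3-/- mice in both subsets. C1qa went from 6.33 to 8.38 CPM in WT to 31.6 to 46.1 CPM in Nlrp3-/- M-MDSCs (log2 fold change 2.44 ± 0.20, FDR 9.42e-05) and from 13.3 to 59.4 CPM to 76.5 to 109 CPM in G-MDSCs (1.58 ± 0.35, FDR 0.00755). C1qb was at 1.94 ± 0.31 (FDR 0.00427) in M- and 1.39 ± 0.30 (FDR 0.00641) in G-MDSCs, C1qc at 1.96 ± 0.35 (FDR 0.00636) and 1.92 ± 0.23 (FDR 9.90e-05), and Fcna at 1.83 ± 0.32 (FDR 0.00635) and 1.26 ± 0.32 (FDR 0.0145). All of these groups were without overlap. They stood beside the rise of the red pulp macrophage list, which holds the C1q chains themselves, and whether they came from such cells was not tested. In all, 4 of 11 tested components rose in M-MDSCs and 5 of 8 in G-MDSCs, Cfp among the latter, and none fell, beside 3.51% and 4.70% of all genes called higher.

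Of the complement receptors Itgam, the CD11b chain of complement receptor 3 and a marker of the sort gate, fell in both subsets. It went from 149 to 231 CPM in WT to 97.1 to 136 CPM in Nlrp3-/- M-MDSCs (-0.71 ± 0.19, FDR 0.0329) and from 476 to 577 CPM to 260 to 333 CPM in G-MDSCs (-0.97 ± 0.15, FDR 0.000632). It was the single one of 6 tested complement receptors called in either subset. Pafah1b3, a catalytic subunit of an intracellular platelet-activating factor acetylhydrolase, rose by 1.00 ± 0.26 on the log2 scale (FDR 0.0304) in M- and 1.46 ± 0.28 (FDR 0.00283) in G-MDSCs and was the one gene of its list called.

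Of 33 tested genes of signalling downstream of the receptors, 1 was called in M-MDSCs, where 10.6% of all genes were, and 6 in G-MDSCs, where 16.4% were. Adrbk1, the kinase GRK2 that desensitizes chemoattractant receptors, rose in M-MDSCs (0.67 ± 0.17, FDR 0.0282). In G-MDSCs the arrestin Arrb1 (0.60 ± 0.18, FDR 0.0312), the PI3Kγ regulatory subunit Pik3r5 (0.61 ± 0.18, FDR 0.0314) and Rgs1 (1.09 ± 0.28, FDR 0.0174) rose, and the phospholipase Plcb2 (-0.63 ± 0.19, FDR 0.0308), Rgs18 (-1.41 ± 0.21, FDR 0.000486) and Rgs3 (-1.35 ± 0.40, FDR 0.0312) fell. Rgs1, Rgs3 and Rgs18 speed up the switching-off of G proteins, so members of this family moved in opposite directions. In the other subset Adrbk1 (0.54 ± 0.19, FDR 0.0603), Arrb1 (0.56 ± 0.19, FDR 0.0726), Pik3r5 (0.48 ± 0.18, FDR 0.101) and Rgs18 (-0.64 ± 0.25, FDR 0.111) went the same way without being called. Plcb2 (-0.01), Rgs1 (0.09) and Rgs3 (-0.02) changed little in M-MDSCs. The interaction was called for none of these genes. The median log2 fold change of the 33 was 0.11 in M- and 0.24 in G-MDSCs. When 1 library at a time was left out, Adrbk1, Arrb1 and Pik3r5 were called in 2 of 8 fits, Plcb2 and Rgs3 in 3, Rgs1 in 6 and Rgs18 in 8. Plcb2 was not called with library sizes alone (-0.49, FDR 0.0715), upper-quartile scaling (-0.57, FDR 0.0499, under the fold minimum) or the model of all 16 libraries (-0.54, FDR 0.0713), nor was Itgam in M-MDSCs with library sizes alone (-0.61, FDR 0.0504). The calls of Itgam and Pafah1b3 in M-MDSCs were made in 2 of 8 such fits and those in G-MDSCs in 8, as were those of the C1q chains and Fcna in both subsets. With GC content and length offsets Adrbk1 (0.45, FDR 0.108), Pik3r5 (0.48, FDR 0.108), Fcna in G-MDSCs (0.89, FDR 0.085), and Itgam (-0.60, FDR 0.0702) and Pafah1b3 (0.70, FDR 0.101) in M-MDSCs were not called.

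Between the subsets, 35 of 60 tested pathway genes were called higher and 9 lower in G-MDSCs of WT mice (median log2 fold change 1.12, all genes -0.05), beside 26.3% and 27.1% of all genes. In Nlrp3-/- mice 33 of 59 were higher and 8 lower (median 0.83, all genes -0.12), beside 23.7% and 27.4%. The genes that follow were picked after their values were seen. Lpcat2, an enzyme of platelet-activating factor synthesis, was higher in G-MDSCs by 3.43 ± 0.20 on the log2 scale in WT (FDR 8.83e-08) and 3.21 ± 0.17 in Nlrp3-/- mice (FDR 2.71e-09), and Pla2g7, the secreted hydrolase that degrades it, by 2.51 ± 0.25 (FDR 5.40e-06) and 2.75 ± 0.21 (FDR 1.06e-07). Anxa1, a ligand of Fpr2, was higher in G-MDSCs by 1.92 ± 0.36 (FDR 0.000662) and 2.09 ± 0.60 (FDR 0.00931). Saa3, a serum amyloid A, another ligand of Fpr2, was lower, at -3.32 ± 0.55 (FDR 0.000292) and -2.05 ± 0.76 (FDR 0.0336) on 0 to 24 counts per G-MDSC library. Cmklr1, a chemerin receptor, was also lower, with log2 fold changes of -3.01 ± 0.66 (FDR 0.00200) and -2.82 ± 0.28 (FDR 1.29e-06).

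The pattern of each member over the 16 libraries was compared by Pearson's r of log2 CPM. The comparison took in the 10696 genes that passed the filter on low counts over all 16. The 16 points share their libraries and the split into 2 subsets, so r is given as a description. Fpr1 was nearest to Apobr (0.986), Asb7 (0.985) and Ifnlr1 (0.984), and Fpr2 to Lpcat2, Clec4d (0.989 each) and Galm (0.987). C5ar1 was nearest to Rab11fip1 (0.995), Tspan2 and Sorl1 (0.994 each), and Ptafr to Rpl3l, Trib1 (0.981 each) and Sfxn5 (0.980). Cfb was nearest to Inf2 (0.990), Fn1 (0.988) and S100a4 (0.987), C3 to Hsd17b12, Ttc4 (0.955 each) and Crybb1 (0.946), and Cfp to Zbtb7b (0.962), Ifit3 (0.961) and Arpc1b (0.958). Cd55, with Nedd4 (0.918), Zbtb6 (0.917) and Cstf3 (0.913), and C3ar1, with Trim62 (0.894), Klhl22 (0.891) and Hint2 (0.885), had looser neighbours. Among the members themselves, Fpr1, Fpr2 and C5ar1 had pairwise r of 0.97, and r between Fpr1 and Cfb was -0.95.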

How the data were processed

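M- and G-MDSCs of 4 WT and 4 Nlrp3-/- tumor-bearing mice were profiled by QuantSeq 3′ mRNA sequencing, with 1 RNA sample per mouse and subset. Reads were mapped by the authors to mm10 with HISAT2 2.1.0 and counted per gene with HTSeq in strand-aware mode, and raw counts were deposited, with no totals of unassigned reads. Depth was 2295967 to 6079866 counts. Counts were used as deposited, in R 4.3.3 with edgeR 4.0.16 (filterByExpr, TMM, quasi-likelihood test) and DESeq2 1.42.0 as an alternative. For comparison across libraries, CPM and log2 CPM (prior count 2) were computed over all 16. SE is the log2 fold change divided by the square root of F. A tag near the 3′ end stands for 1 transcript, and levels were not compared between genes. Scripts were tested on simulated data.

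The members and the gene lists were chosen with earlier results of these data known. Named were all 9 members, listed pathway genes called between genotypes, Nlrp3, and for each member the 3 genes of highest r. Marker and neighbouring genes and those said to be picked after their values were seen were named outside this rule. The values of 1 listed gene are not reported here. Replicates differed beyond sampling noise (chi-square per degree of freedom at least 6.76 over 24 pairs). M- and G-MDSCs of 1 mouse are paired by the labels, and their deviations correlated at 0.097 to 0.397 (WT) and 0.008 to 0.382 (Nlrp3-/-). WT and Nlrp3-/- mice of 1 number are different animals. Promoters came from RefSeq (GRCm38.p6) and gene positions from GENCODE (mm10). Alternatives were another tool, other scalings and filters, GC content and length offsets (splines of 4 degrees of freedom), blocks and leaving out each library.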

Additional observations from a re-analysis of the deposited data

Results flagged for a closer look

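Of 36 sets of 4 libraries (9 genes in 4 groups), 1 held a library set apart from the other 3 by Dixon's criterion, which chance meets in about 1 in 20 groups. C3ar1 in Nlrp3-/- M-MDSC replicate 2 was at 11.6 CPM (68 counts), while the other 3 libraries lay between 5.70 and 6.47 CPM, a gap of 0.869 of the whole range. Without it the lower C3ar1 level of G-MDSCs in Nlrp3-/- mice was no longer called.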

How the results depend on the processing

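The differences between the subsets kept their direction in every alternative run, and 7 to 9 members were called whichever library was left out, in either genotype. With at least 10 counts demanded in every library, 5 members were called in Nlrp3-/- mice, as Fpr1, Cfb and C3ar1 could not be tested. In M-MDSCs the number called between genotypes was 0 to 1 on leaving out a library and 0 otherwise.

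In G-MDSCs the 2 calls between genotypes were the least stable. Leaving out a library gave 0 to 2 calls, demanding 10 counts in every library gave 1 (Cd55), and GC content and length offsets, the replicate block and both together gave 0 each, while DESeq2, edgeR's exact test, upper-quartile scaling, no filter and the model of all 16 libraries gave 3. Replicate numbers pair no mice across genotypes (mean r -0.152 in G-MDSCs and -0.157 in M-MDSCs, with 0 of 4 libraries closest to their own number), and blocking by them left 0 members called in M-MDSCs. Blocking by mouse changed no call between the subsets or in the interaction.

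Signs turned only for differences that were not called. In M-MDSCs Fpr1 was at -0.27 with the replicate block and -0.18 with block and offsets, and on leaving out a library at -0.44 to 0.75, C5ar1 at -0.51 to 0.16 and Ptafr at -0.43 to 0.04. In G-MDSCs C3 was at 0.10 with library sizes alone, 0.04 with upper-quartile scaling, 0.06 in the model of all 16 libraries and on leaving out a library at -0.10 to 0.07, Fpr1 at -0.02 to 0.21 and Fpr2 at -0.03 to 0.25. In the interaction, on leaving out a library, Fpr1 was at -0.62 to 0.33, C3ar1 at -0.33 to 0.55, C3 at -0.40 to 0.01 and Cd55 at -0.65 to 0.06. The cause was not tested. Counts of at most 68 per library limit Cd55, C3ar1 and, in M-MDSCs, Fpr1, and Cfb in G-MDSCs could be bounded but not compared between genotypes.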
